A study of Homo sapiens with 6 samples.

Results

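Complement is a cascade of serum and cell surface proteins, and the 9 genes described here encode its central component C3, the proteases C1R, C1S and CFB, the soluble inhibitors CFI and SERPING1, and the membrane regulators CD46, CD55 and CD59. They were chosen by name from the 58676 genes in the RNA sequencing table, with results of the comparison between BCL9 KD and NS control known. All values and calls given for them are therefore a description. Expression was measured in DCIS.COM, an established human basal-like breast cell line that forms lesions resembling ductal carcinoma in situ (DCIS) in mice. NS control cells carried a PLKO.1 non-silencing vector and BCL9 KD cells a PLKO.1 BCL9 knockdown vector, so both groups had been transduced with lentivirus and, per the study's methods, kept in puromycin. Each group had 3 replicates, each labelled as a separate T75 flask grown in DMEM/F12 with horse serum, and other lines or untransduced cells were not analysed here. The study's methods state fewer biological replicates per group for the authors' own test than the labels and the table give, and all 6 labelled samples were used here. The p-values therefore measure the spread between flasks of the same transduced line. The comparison addressed which genes differ in expression between BCL9 KD and NS control cells. BCL9 is a transcriptional co-activator of the Wnt pathway. The study's methods give a single BCL9 shRNA sequence. Reduced BCL9 therefore cannot be told apart from other effects of that shRNA or from other differences between the transduced lines.

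The classical pathway starts when C1q recruits the proteases C1r and C1s, and the alternative pathway is amplified by factor B on deposited C3b. Both converge on cleavage of C3 and, further down, of C5, whose product nucleates the membrane attack complex. Liver is the main source of the serum proteins, but epithelial cells also produce some of them, and nearly all nucleated cells carry CD46, CD55 and CD59, which keep complement from acting on their own surface.

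Levels are given as FPKM, which divides reads by gene length and by the reads counted in the sample. Levels of different genes can be set side by side only roughly. Each gene has a single length in the deposited values, and FPKM keeps the GC differences given below. Between 15222452 and 26949026 reads were counted per sample, and log2 values of replicates of a group correlated with r between 0.964 and 0.987. BCL9, the targeted gene, was at 6.25, 6.24 and 5.34 FPKM in NS control and at 2.86, 2.78 and 2.59 FPKM in BCL9 KD replicates 1 to 3. Its log2 fold change was -0.99 (SE 0.0933, limma adjusted p = 0.00773), in the direction of the labels. All 6 basal epithelial markers examined (KRT5, KRT14, KRT6A, TP63, EGFR and CDH3) were present, and their summed level was 507 to 562 FPKM in NS control and 518 to 566 FPKM in BCL9 KD. KRT5 made up most of this sum, and within it EGFR was lower (17.8 against 21.4 FPKM) and TP63 higher (17.6 against 14.6 FPKM) in every BCL9 KD than in every NS control sample, with limma adjusted p of 0.129 and 0.180. Hepatocyte markers (ALB, APOA1 and TTR) summed to 0 FPKM in NS control and to at most 0.0168 FPKM in BCL9 KD. The NS control samples differed from each other with the GC content of the transcripts, in opposite directions for replicates 1 and 3. The deviation from the mean of the other replicates had a Spearman correlation with GC content over genes, given without a test, of 0.6 in NS control replicate 1, -0.263 in replicate 2 and -0.542 in replicate 3, and of -0.123 to 0.138 in BCL9 KD. Below 40% GC its median was -0.55 (log2) in NS control replicate 1 and 0.44 in replicate 3, and at 60% GC and above 0.14 and -0.11. These deviations are not independent, since each replicate is part of the mean that the others are set against.

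Of the 9 complement genes, 6 had a mean of at least 0.5 FPKM over the 6 samples and entered the test, namely C3, C1R, C1S, CD46, CD55 and CD59. Each of these was above 0.5 FPKM in the mean of either group. CFI, CFB and SERPING1 were too low and are given by their values only. The test was limma on log2(FPKM + 0.5), with p-values adjusted over all 13745 genes tested. C3 and CD55 rose in BCL9 KD (adjusted p under 0.05) and none of the 6 fell. Over all tested genes, 5.87% passed in either direction and 2.96% passed as higher in BCL9 KD. These counts depended on single samples. Without NS control replicate 2, BCL9 KD replicate 2 or BCL9 KD replicate 3, 0 of the 6 and 12, 13 and 5 of all genes passed, and without BCL9 KD replicate 1, 0 of the 6 and 736 of all genes passed. C3, C1R, CD55 and CD59 were higher in every BCL9 KD sample than in every NS control sample, as were 17.8% of all tested genes. All 6 log2 fold changes were above 0, as were 7621 of the 13745 over all tested genes, with a median of 0.34 beside a median of 0.04 over all tested genes. CD46, one of the values that set this median, was 0.09 without NS control replicate 1. In that fit C3 was 0.28, C1R 0.67, C1S 0.14, CD55 0.49 and CD59 0.16. The median over all tested genes was 0.0028 there.

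**Figure D1:**
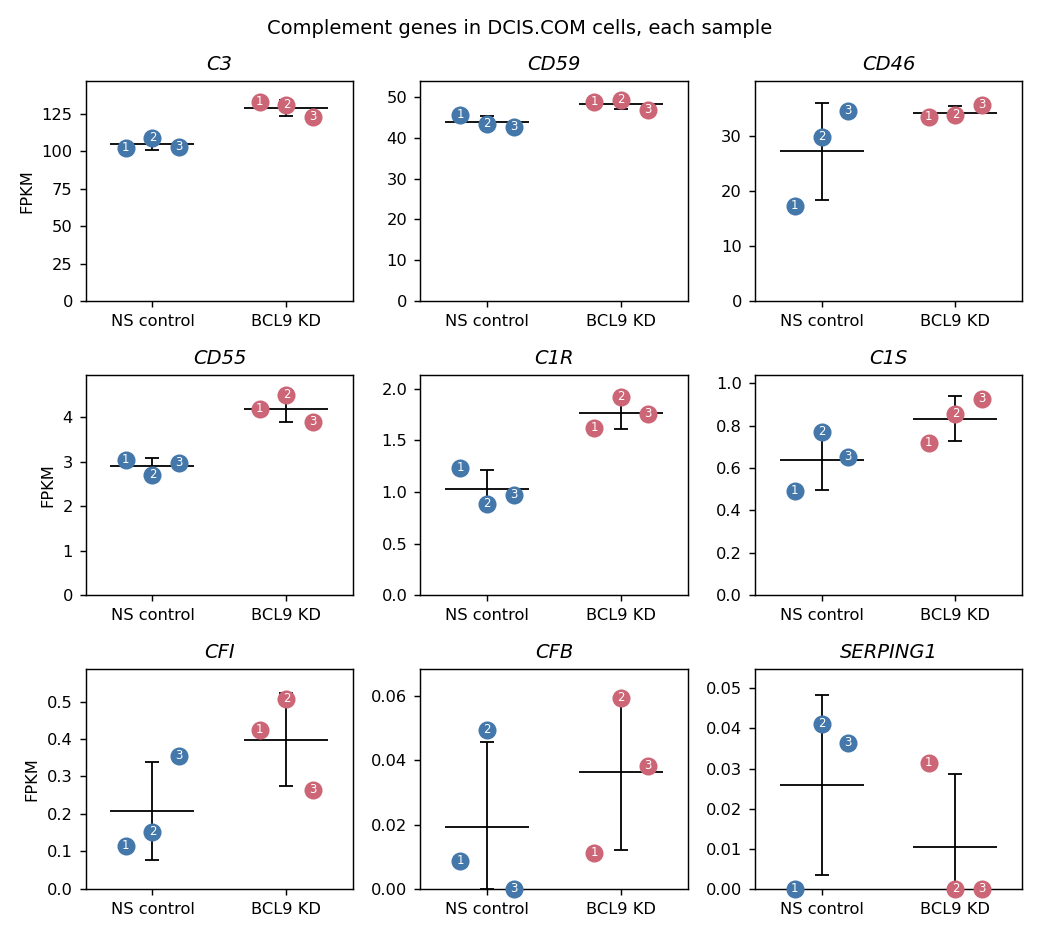
FPKM of the 9 complement genes in each sample, with an axis from 0 of its own for every gene; circles are samples with their replicate number, horizontal lines are group means and bars are SD (n = 3; the lower bar is cut at 0 FPKM). C3, CD55, C1R and CD59 are higher in all BCL9 KD samples than in all NS control samples, and CD46 is low in NS control replicate 1 (17.3 FPKM).

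Sequence upstream of the start was available for 6 of the 9 genes in the RefSeq table (GRCh38.p14), CD46, CD55, CD59, CFI, CFB and C1R, as 11 windows of 250 bases for their alternative starts. The windows below belong to the 3 of these genes whose groups did not overlap, the only window of CD55, both windows of C1R and the first listed of the 4 windows of CD59, and they are printed 5′ to 3′ on the strand of the gene as the sequence before the RefSeq starts. Those starts differ from the gene bounds of the deposited table, by which C1R window b lies within the gene, C1R window a and the CD55 window lie mostly within it, and the CD59 window lies before it. Capitals mark motif matches. The CD55 window lies at chr1:207321428-207321677 (plus strand), the C1R windows at chr12:7092446-7092695 (a) and chr12:7091894-7092143 (b, both minus strand) and the CD59 window at chr11:33736480-33736729 (minus strand).
CD55: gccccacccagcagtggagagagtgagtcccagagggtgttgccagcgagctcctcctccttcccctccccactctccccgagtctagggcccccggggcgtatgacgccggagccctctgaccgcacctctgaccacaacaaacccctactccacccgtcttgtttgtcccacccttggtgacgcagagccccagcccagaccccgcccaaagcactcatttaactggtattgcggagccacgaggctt
C1R a: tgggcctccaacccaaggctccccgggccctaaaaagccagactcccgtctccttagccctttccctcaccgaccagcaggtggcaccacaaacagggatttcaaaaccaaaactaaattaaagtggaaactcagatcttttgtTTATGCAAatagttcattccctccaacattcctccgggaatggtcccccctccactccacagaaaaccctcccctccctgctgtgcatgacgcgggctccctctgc
C1R b: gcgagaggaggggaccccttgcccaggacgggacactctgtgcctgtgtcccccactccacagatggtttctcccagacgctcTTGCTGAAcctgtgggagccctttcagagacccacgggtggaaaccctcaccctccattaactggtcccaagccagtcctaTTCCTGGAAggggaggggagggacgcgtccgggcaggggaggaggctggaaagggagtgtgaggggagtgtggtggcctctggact
CD59: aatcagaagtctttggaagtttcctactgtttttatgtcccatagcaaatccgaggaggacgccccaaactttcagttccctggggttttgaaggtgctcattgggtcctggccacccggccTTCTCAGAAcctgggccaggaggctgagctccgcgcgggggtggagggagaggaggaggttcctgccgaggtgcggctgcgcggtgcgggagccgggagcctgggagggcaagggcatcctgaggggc
Both strands were searched for a STAT motif (TTCNNNGAA), a C/EBP motif (TTGCNNAA), an AP-1 motif (TGANTCA), an ETS motif (CCGGAAG) and a REL motif (GGNNTTTCC). The CD55 window held no match to any of them. Counted from the base after the window as +1, so that the last base of a window is at -1, C1R window a held a C/EBP match at -106 to -99, C1R window b a C/EBP match at -167 to -160 and a STAT match at -86 to -78, and the CD59 window shown a STAT match at -128 to -120. STAT matches were found in 4 of the 11 windows, those of CFB, C1R and CD59, and in 6.57% of the 35116 windows of all genes. C/EBP matches were found in 3 windows of C1R and CD59 (9.05% of all windows), ETS matches in 2 windows of CD46 (8.52%), AP-1 matches in 1 window of CD59 (6.57%) and REL matches in 0 (5.48%). A match in these letters is not evidence of binding, and some of the windows of a gene overlap each other. The CD59 windows with a STAT match hold the same site, as do the CD46 windows with an ETS match. Each of these sites was therefore counted more than once, and the window counts cannot be read as an excess over all windows.

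C3, the protein on which all activation pathways converge, was the most abundant of the 9 (ENSG00000125730, chr19:6677704-6730562 on hg38, minus strand). Its mean over the 6 samples was 116.7 FPKM, and 1.81% of the tested genes were higher. C3 was at 102.3, 108.9 and 102.6 FPKM in NS control replicates 1 to 3 and at 132.8, 131.0 and 122.9 FPKM in BCL9 KD replicates 1 to 3. The groups did not overlap, and the gap between the highest NS control and the lowest BCL9 KD sample was 14.1 FPKM. The mean went from 104.6 ± 3.72 to 128.9 ± 5.24 FPKM (SD, n = 3), a ratio of 1.23. On the log2 scale C3 rose by 0.30 (SE 0.0664, 95% CI 0.14 to 0.46, limma adjusted p = 0.0488). Between 13008 and 29406 reads per sample lay on the gene, so counting error was small beside the spread between flasks. The call was close to the threshold. It was lost when any 1 of the 6 samples was left out, with adjusted p between 0.0587 and 0.211 and log2 fold changes between 0.28 and 0.33. It was also lost with median-of-ratios scaling (0.26, adjusted p = 0.107), quantile normalization (0.19, adjusted p = 0.171) and other settings. Of 18 alternatives, C3 passed in 6. C3 shares 649 bases with GPR108 and lies over CTD-3128G10.7 on the same strand, and how reads in shared bases were assigned is not stated in the sources used here. Since these are bulk samples, a different number of cells with a transcript and a different amount of it per cell cannot be told apart, for C3 and for all genes that follow.

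CFB, the protease that joins C3b to form the alternative pathway convertase, was barely detected (ENSG00000243649, chr6:31945650-31952084, plus strand). It had 1, 5 and 0 reads in NS control and 1, 8 and 3 reads in BCL9 KD replicates 1 to 3. The groups overlapped, and the highest sample was at 0.0594 FPKM. A difference was not detectable at this depth. CFB also shares 23 bases with C2, the corresponding protease of the classical pathway, which had at most 8 reads in a sample. XXbac-BPG116M5.17 lies over 6399 bases of CFB on the same strand and is listed at 0 FPKM in all samples.

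The classical pathway proteases C1R and C1S lie next to each other on chromosome 12, 9176 bases apart and on opposite strands. C1R activates itself within the C1 complex and then cleaves C1S (C1R is ENSG00000159403, chr12:7080209-7092607, minus strand). C1R was at 1.23, 0.880 and 0.973 FPKM in NS control and at 1.62, 1.92 and 1.76 FPKM in BCL9 KD replicates 1 to 3. All 3 BCL9 KD samples were above all NS control samples. The mean was 1.03 ± 0.184 FPKM in NS control and 1.76 ± 0.154 FPKM in BCL9 KD, a ratio of 1.72, from 84 to 294 reads per sample. Its log2 fold change of 0.57 (SE 0.135, 95% CI 0.25 to 0.89) did not pass the test across all genes (limma adjusted p = 0.0544). C1R passed in 4 of 18 alternatives, namely without NS control replicate 1 (0.67, limma adjusted p = 0.044), after GC correction (0.60, adjusted p = 0.0242), with both (0.67, adjusted p = 0.0326) and by limma-voom on the reads (0.79, adjusted p = 0.0246), which uses no added FPKM value. It did not pass in the other 14, among them the other 5 fits with 1 sample left out (adjusted p from 0.0657 to 0.221). C1R shares 3021 bases with its neighbor C1RL, a related protease gene at 4.62 FPKM in NS control and 4.74 FPKM in BCL9 KD.

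C1S, which cleaves C4 and C2, was lower than C1R (ENSG00000182326, chr12:6988259-7071032, plus strand). It was at 0.491, 0.773 and 0.651 FPKM in NS control and at 0.718, 0.856 and 0.929 FPKM in BCL9 KD replicates 1 to 3. NS control replicate 2 was above BCL9 KD replicate 1, so the groups overlapped. The mean was 0.638 ± 0.141 FPKM in NS control and 0.834 ± 0.107 FPKM in BCL9 KD. The log2 fold change was 0.23 (SE 0.165, 95% CI -0.16 to 0.62, limma adjusted p = 0.386), an interval that holds 0 as well as an increase the size of that of C3. It was 0.14 without NS control replicate 1 and 0.42 by limma-voom on the reads, and passed in neither. LPCAT3 lies over 30252 bases of the C1S locus on the opposite strand, and whether the counting used strand is not stated in the sources used here.

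The soluble inhibitors were low. CFI, the protease that cleaves C3b and C4b with the help of cofactors, was at 0.114, 0.153 and 0.356 FPKM in NS control and at 0.423, 0.508 and 0.264 FPKM in BCL9 KD replicates 1 to 3 (ENSG00000205403, chr4:109740694-109802179, minus strand). NS control replicate 3 was above BCL9 KD replicate 3, so that the groups overlapped. In all, 43 reads fell on CFI in NS control and 98 in BCL9 KD, and the means were 0.208 ± 0.130 and 0.398 ± 0.124 FPKM. When no filter on low FPKM was used, its log2 fold change was 0.35 (limma adjusted p = 0.454). AC126283.2, a gene on the same strand that shares 61306 bases with CFI, is listed at 0 FPKM in all samples. SERPING1, the C1 inhibitor that removes C1r and C1s from the complex, had 0, 3 and 2 reads in NS control and 2, 0 and 0 reads in BCL9 KD (ENSG00000149131, chr11:57597387-57614853, plus strand). At 0 to 3 reads a sample, no direction can be read for SERPING1.

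The membrane regulators CD46, CD55 and CD59 were all clearly expressed. CD55, also called decay-accelerating factor because it takes C3 convertases apart, was the lowest of them (ENSG00000196352, chr1:207321508-207386804, plus strand). It was at 3.04, 2.71 and 2.97 FPKM in NS control and at 4.19, 4.50 and 3.89 FPKM in BCL9 KD replicates 1 to 3. Every BCL9 KD sample was above every NS control sample, by at least 0.842 FPKM. The mean went from 2.91 ± 0.178 to 4.19 ± 0.306 FPKM, a ratio of 1.44, and CD55 rose by 0.46 on the log2 scale (SE 0.0916, 95% CI 0.24 to 0.68, limma adjusted p = 0.0404). Between 252 and 675 reads per sample lay on the gene. The call remained without NS control replicate 1 or 3 (adjusted p = 0.0459 and 0.0433). It was lost without any other single sample (adjusted p from 0.0732 to 0.193), after GC correction (0.33, adjusted p = 0.129), with median-of-ratios scaling (0.42, adjusted p = 0.0665), quantile normalization (0.39, adjusted p = 0.08), no filter (adjusted p = 0.0947) or no mean-variance trend (adjusted p = 0.0542). It held with GC correction and without NS control replicate 1 (0.46, adjusted p = 0.0388). Of 18 alternatives, CD55 passed in 7. No other gene of the table overlaps CD55.

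CD46, a cofactor for the cleavage of C3b and C4b by factor I, lies 365252 bases from CD55 in the same gene cluster on chromosome 1 (ENSG00000117335, chr1:207752057-207795513, plus strand). CD46 was at 17.3, 29.8 and 34.5 FPKM in NS control and at 33.4, 33.8 and 35.5 FPKM in BCL9 KD replicates 1 to 3. The BCL9 KD samples were close together, whereas NS control replicate 1 was far below all others and NS control replicate 3 was within the BCL9 KD range. The mean was 27.2 ± 8.87 FPKM in NS control and 34.3 ± 1.13 FPKM in BCL9 KD. The log2 fold change of 0.38 (SE 0.232, 95% CI -0.17 to 0.93) did not pass the test (limma adjusted p = 0.321). It was 0.09 without NS control replicate 1, 0.58 without NS control replicate 3 (adjusted p = 0.115), 0.08 after GC correction and -0.01 with GC correction and without NS control replicate 1. CD46 has transcripts of low GC content (37.4%), and in NS control replicate 1 it was 0.87 (log2) below the mean of NS control replicates 2 and 3. CDCA4P4, which shares 680 bases with CD46 on the same strand, had at most 4 reads in a sample.

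CD59, which blocks assembly of the membrane attack complex, was the most abundant of the membrane regulators (ENSG00000085063, chr11:33698261-33736445, minus strand). It was at 45.6, 43.3 and 42.7 FPKM in NS control and at 48.8, 49.1 and 46.9 FPKM in BCL9 KD replicates 1 to 3. The groups did not overlap, but the gap between them was 1.28 FPKM. The mean was 43.9 ± 1.51 FPKM in NS control and 48.3 ± 1.22 FPKM in BCL9 KD, a ratio of 1.10. The log2 fold change was 0.14 (SE 0.0625, 95% CI -0.01 to 0.28, limma adjusted p = 0.212). In this fit any increase larger than 0.28 on the log2 scale lay outside the interval. The 95% CI was 0.03 to 0.30 without NS control replicate 1 and -0.08 to 0.28 after GC correction. Over 18 alternatives the log2 fold change ran from 0.09 to 0.17, and CD59 passed in 0 of them. C11orf91 and AL049629.2 overlap CD59 on the same strand, with at most 12 and 3 reads in a sample.

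**Figure D2:**
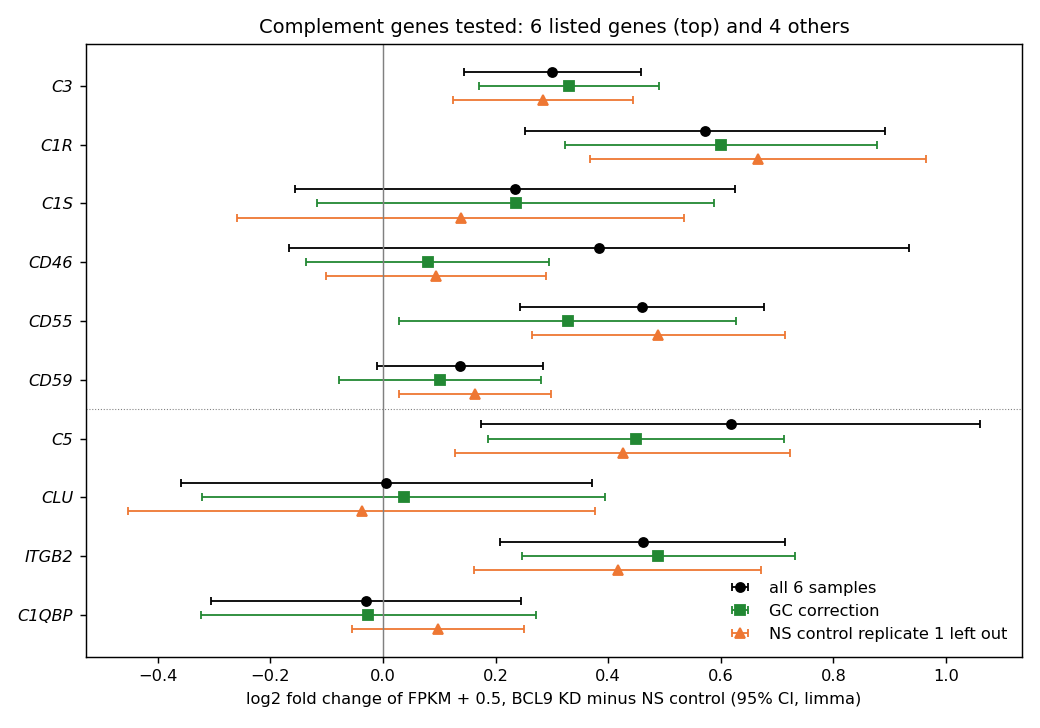
log2 fold change of FPKM + 0.5 between BCL9 KD and NS control with its 95% CI for the 6 listed complement genes tested (above the dotted line) and for 4 other complement genes; black circles use all 6 samples, green squares a GC correction and orange triangles leave out NS control replicate 1. CD46 moves from 0.38 to 0.08 and 0.09, while C3, C1R, CD55, C5 and ITGB2 have intervals above 0 in all 3 fits.

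By mean FPKM over the 6 samples the order was C3 (116.7), CD59 (46.1), CD46 (30.7), CD55 (3.55), C1R (1.40), C1S (0.736), CFI (0.303), CFB (0.0279) and SERPING1 (0.0182). The ranges over samples of C1R and C1S overlapped, as did those of C1S and CFI and those of CFB and SERPING1. All other neighbors in this order had separate ranges. CD59 and CD46 were in the upper part of the tested genes (5.80% and 9.50% were higher), whereas 56.8% of tested genes were above CD55, 77.9% above C1R and 91.4% above C1S.

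Most of the other complement genes examined were at or near 0. Of 47 such genes, 14 had 0 reads in all 6 samples, another 29 were below the filter, and 4 were tested (C5, CLU, ITGB2 and C1QBP). Among the 43 that were not tested, the highest value in any sample was 0.436 FPKM (C8G) and the most reads were 38 (CR2). By limma 0 of the 4 passed with all 6 samples, 2 (C5 and ITGB2) had an unadjusted p under 0.05, as did 27.5% of all tested genes, and the same 2 passed by limma-voom on the reads, as did 10.2% of all tested genes. The median log2 fold change of the 4 was 0.23. None of the 14 other classical and lectin pathway genes, which include the subunits of C1q, C2 and C4, entered the test, nor did the alternative pathway genes CFD and CFP. The listed genes C1R and C1S were thus the classical pathway genes above the filter.

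**Figure D3:**
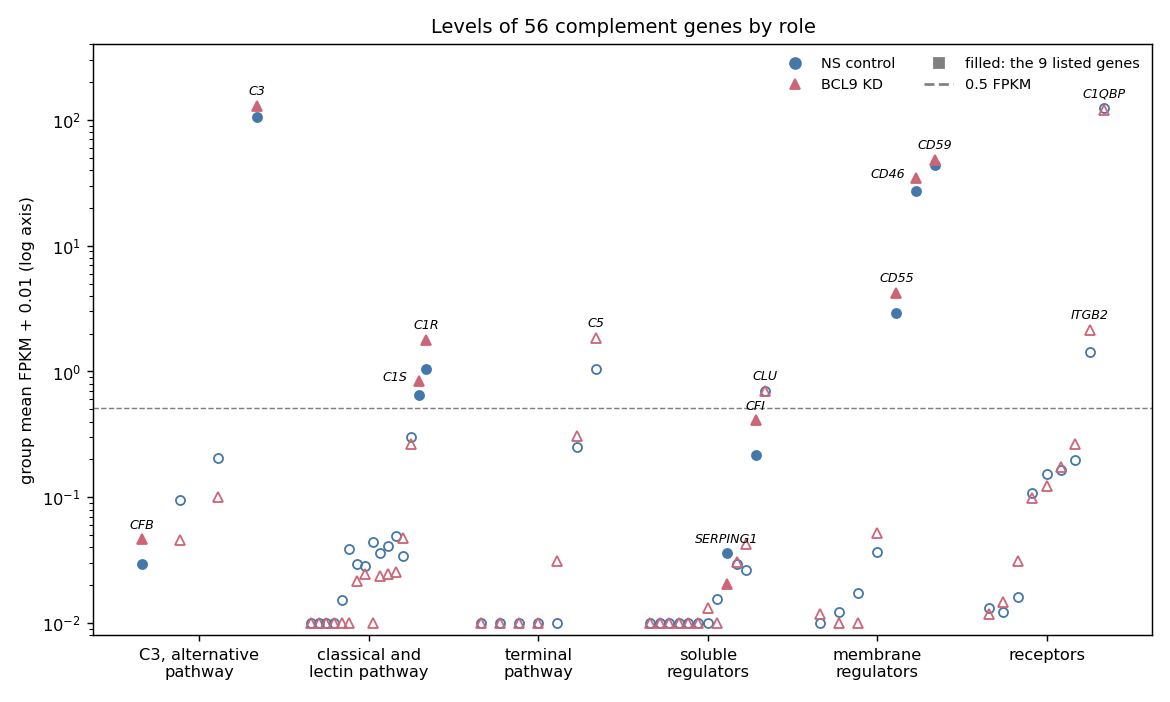
Group means of FPKM + 0.01 on a log axis for the 9 listed complement genes (filled) and 47 others (open), ordered by level within each role; circles are NS control, triangles BCL9 KD and the dashed line the filter at 0.5 FPKM. C3 stands above the alternative pathway genes drawn beside it, and CD46, CD55 and CD59 stand above the 4 other membrane regulators, which are all below the filter.

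C5, the first component of the terminal pathway, was at 0.660, 1.14 and 1.32 FPKM in NS control and at 2.02, 1.77 and 1.69 FPKM in BCL9 KD. The groups did not overlap. Its log2 fold change of 0.62 (SE 0.187) did not pass the test with all samples (limma adjusted p = 0.0934) and was 0.45 after GC correction (adjusted p = 0.0422) and 0.43 without NS control replicate 1 (adjusted p = 0.0887). CLU, which encodes clusterin, an inhibitor of the membrane attack complex, differed by 0.01 (95% CI -0.36 to 0.37, limma adjusted p = 0.985). The receptor genes ITGB2 and C1QBP, named here after their values were seen, had log2 fold changes of 0.46 (adjusted p = 0.053) and -0.03 (adjusted p = 0.884).

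**Figure D4:**
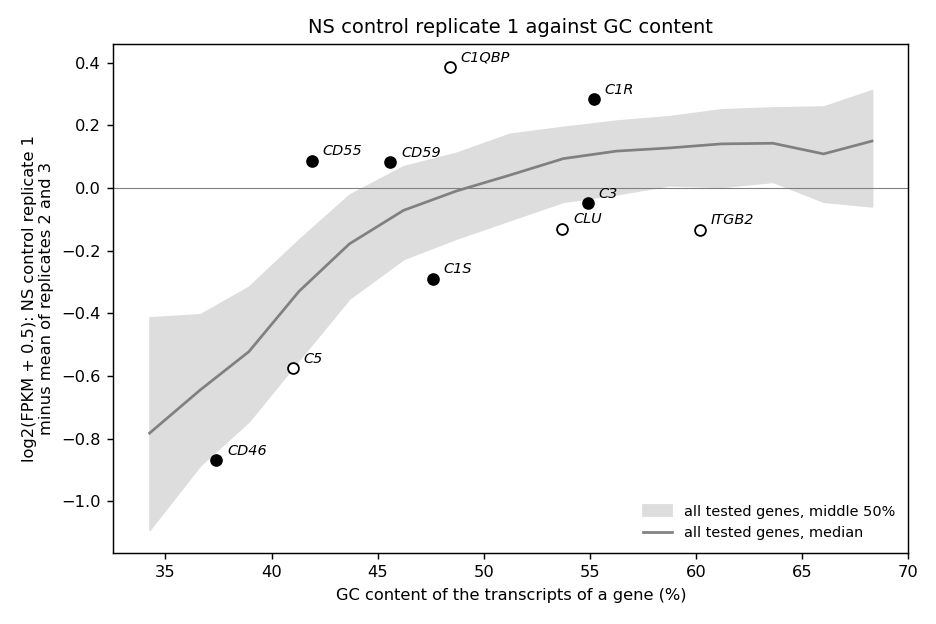
Difference of log2(FPKM + 0.5) between NS control replicate 1 and the mean of NS control replicates 2 and 3, against the GC content of a gene's transcripts in percent; the line is the median and the band the middle 50% of all tested genes, filled points are listed complement genes and open points other complement genes. CD46 (-0.87), C5 (-0.57), C1S (-0.29), ITGB2 (-0.13), CLU (-0.13) and C3 (-0.05) lie at or below the lower edge of the band at their GC content, and CD55 (0.09), CD59 (0.08), C1R (0.28) and C1QBP (0.39) lie above the band.

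Markers of other cell types were also compared, since complement genes are expressed by many of them. Of 5 macrophage and leukocyte markers (PTPRC, CD14, CD68, CSF1R and LYZ), CD14 alone reached a mean of 0.5 FPKM, and their summed level was 0.371 to 0.629 FPKM in NS control and 0.911 to 1.55 FPKM in BCL9 KD. CD14 differed by 0.73 on the log2 scale (adjusted p = 0.0811 by limma), while PTPRC, which marks all leukocytes, had at most 1 read in a sample and CD68 at most 2. Of the 3 endothelial markers, PECAM1 was at 2.28, 2.29 and 1.72 FPKM in NS control and at 3.91, 3.11 and 3.32 FPKM in BCL9 KD (log2 fold change 0.61, limma adjusted p = 0.0477). VWF and CDH5, which define endothelium, had at most 5 reads in a sample. The 7 fibroblast markers (COL1A1, COL1A2, COL3A1, DCN, LUM, PDGFRA and PDGFRB) summed to 0.702 to 0.732 FPKM in NS control and to 0.768 to 0.905 FPKM in BCL9 KD, and COL3A1 had 0 reads throughout. CD14 and PECAM1 thus moved in the same direction as C3 and CD55, and their part in the result was not tested.

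Genes whose levels most resembled those of C3 were sought among 6581 genes with a mean of at least 5 FPKM, by Pearson's r of log2(FPKM + 0.5) over the 6 samples. The highest were FAM192A (r = 0.996), TMEM69 (0.988), GNPAT (0.987) and SPOCK1 (0.986). SPOCK1, which encodes a proteoglycan, went from a mean of 4.64 to 10.1 FPKM, and FAM192A from 10.8 to 12.1 FPKM. An r above 0.95 with C3 was found for 38 genes (0.577%) and above 0.9 for 167 genes (2.54%). All of these correlations share the same 6 libraries and are a description only.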

How the data were processed

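Total RNA from 3 NS control and 3 BCL9 KD flasks was sequenced as paired-end libraries. Alignment by the authors was with STAR and gene counting with HTSeq 0.6.1, from which they deposited FPKM for 58676 genes, on hg38 per the processing notes, with the gene length in bases, a column in other units. The authors tested with DESeq2 on counts, which were not used here.

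FPKM multiplied by gene length came in whole steps of a value particular to each sample, and division by that step gave whole reads (100% of values within 0.1) and, from their sum, 15222452 to 22712638 reads per sample in NS control and 15665714 to 26949026 in BCL9 KD. Reads carry no molecular identifiers, so read numbers speak of counting error only. Genes with a mean of at least 0.5 FPKM were tested by limma 3.58.1 (R 4.3.3) with a mean-variance trend on log2(FPKM + 0.5), so that fold changes of low genes are understated, and p-values were adjusted by Benjamini-Hochberg over all tested genes. The fitting code was run on simulated counts with planted changes and no GC trend, which checks the code and not the calls made here. The replicate numbers of the labels did not pair the samples (r of deviations of same-numbered samples from -0.147 to -0.00287), so no block was used. GC content came from transcripts of a GRCh37 annotation matched by gene identifier (98.8% of tested genes). GC correction subtracted a loess curve (span 0.3) from each sample. Upstream sequences are from RefSeq on GRCh38.p14. Gene coordinates are those of the deposited table.

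The genes and lists were chosen with earlier results of these data known. Named are the 9 genes, BCL9, cell type markers, overlapping genes, genes most like C3 (by rule the first 5), and, of 47 other complement genes, those that passed the test or were tested outside the receptor group. ITGB2, C1QBP, C8G and CR2 were named after their values were seen. Some genes these rules cover are not reported here. Alternatives were other added values, filters, scalings and variance models, GC correction, limma-voom on recovered reads, the replicate block and leaving out each sample.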

Additional observations from a re-analysis of the deposited data

How the results depend on the processing

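With all 6 samples 807 genes passed the test, 5.87% of those tested. They included 2 of the 9 listed genes (C3 and CD55) and 0 of the 47 other complement genes. At the filter of 0.5 FPKM only 6 of the 9 and 4 of the 47 were tested. With no filter on low FPKM these counts were 142 (0.462%), 0 and 0. With median-of-ratios scaling they were 536 (3.9%), 0 and 0, and with limma without the mean-variance trend 332 (2.42%), 0 and 0. After GC correction they were 1756 (12.9%), 2 and 2, and by limma-voom on recovered reads 1403 (10.2%), 3 and 2. Quantile normalization gave 1083 genes (7.88%) and 0 of the 9. Leaving out 1 sample gave 5 to 1712 genes (0.0364% to 12.5%), 0 to 2 of the 9 and 0 of the 47. The low counts came without NS control replicate 2 (12 genes), BCL9 KD replicate 2 (13) and BCL9 KD replicate 3 (5), and the highest without NS control replicate 3. With the replicate block, 0 genes passed by limma (3235 at an unadjusted p under 0.05), 0 of the 9 and 0 of the 47. With GC correction and the replicate block 372 (2.74%) passed, 0 of them among the 9. The numbers share no source in the labels and same-numbered samples did not deviate together. BCL9 stayed lower throughout, at -0.99 with the replicate block (adjusted p = 0.0656) and at -1.06 to -0.95 with 1 sample left out, where its call was also lost without NS control replicate 2 (adjusted p = 0.0636), BCL9 KD replicate 2 (0.06) and BCL9 KD replicate 3 (0.07).

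With GC correction and without NS control replicate 1, an alternative chosen after seeing the data, 1179 of 13577 genes (8.68%), 3 of the 9 and 1 of the 47 (ITGB2) passed, CD46 was at -0.0116, C1QBP at 0.122 and CLU at -0.0195. CLU was also at -0.0188 with median-of-ratios scaling, at -0.0494 with quantile normalization and at -0.0544 to 0.0728 with 1 sample left out, and C1QBP at -0.10 to 0.10 with 1 sample left out. C3, CD55, CD59, C1R and C1S kept their direction in all alternatives run. The adjusted p ranged from 0.0271 to 0.211 for C3, from 0.023 to 0.193 for CD55, and from 0.0242 to 0.221 for C1R. The cause of these changes was not tested. Depth limits CFB and SERPING1, with at most 8 and 3 reads in a sample.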
